A study of Mus musculus with 6 samples.

Results

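The genes described here build the machinery that separates chromosomes and then divides the cell: the kinetochore, the spindle checkpoint, the mitotic kinases, the guards of sister chromatid cohesion, and the proteins of the spindle midzone and the cleavage furrow. The set is a list of 49 mouse gene names whose rule uses no measured value, and each name was looked up in the deposited count table. All 49 were found among its 19639 genes, and all 49 were among the 15287 genes with enough counts to be tested. They were sorted by role into 11 subsets: outer kinetochore (8 genes), inner kinetochore (6), corona (3), spindle checkpoint (5), mitotic kinases and passenger complex (6), centromeric cohesion (4), spindle assembly (4), cytokinesis (4), Cdk1 with its cyclins and Cdc20 (5), the chromosome markers Mki67 and Top2a (2), and the transcription factors Foxm1 and Mybl2 (2).

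RNA was sequenced from lungs of RPM mice that had received a lentivirus with a short hairpin RNA against Thoc1 (shThoc1, 3 libraries) or with a control hairpin (shControl, 3 libraries). In this field RPM stands for mice without Rb1 and Trp53 that overexpress Myc, a model of small cell lung cancer, and animals of both groups carry that background. Thoc1 is a subunit of the THO complex, which couples transcription to mRNA export. Age, sex, the Cre driver, the time after infection, the animal behind each library and the tumour content of each piece are not given in the labels. The p-values therefore reflect the spread between libraries only, and that spread may be technical. By their titles, shThoc1 replicates 2 and 3 may come from 1 animal, which the labels do not settle.

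A kinetochore forms on each centromere. Its inner part, the constitutive centromere network, sits on nucleosomes that hold the histone variant Cenpa, and its outer part, led by the Ndc80 complex, grips microtubules. Unattached kinetochores recruit the checkpoint proteins Bub1, Bub1b, Bub3, Mad2l1 and Ttk, which hold back Cdc20 and the anaphase-promoting complex until every chromosome is attached. Transcripts of most of these proteins accumulate late in the cell cycle, and small cell lung cancer is among the fastest dividing of lung tumours.

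The total count was 9934583 to 15025199 per library, with shThoc1 replicate 2 the shallowest. Thoc1 itself had 53.4, 69.5 and 61.4 CPM (counts scaled to library size) in shThoc1 replicates 1, 2 and 3, against 85.7, 80.2 and 85.8 CPM in the shControl libraries. Its log2 fold change was −0.45 (SE 0.17, adjusted p = 0.304 by edgeR's quasi-likelihood test). Among the shThoc1 libraries, replicate 2 stood apart before any comparison. In shThoc1 replicate 2 the T cell markers (8 of 8 tested) summed to 1043 CPM, against 90.3 to 94.7 CPM in the other shThoc1 libraries and 35.9 to 70.3 CPM in shControl. The alveolar type 2 markers (5 of 5 tested) summed to 489 CPM in shThoc1 replicate 2, against 18292 to 19434 CPM in the other shThoc1 libraries and 5475 to 13826 CPM in shControl. Results are therefore given with and without shThoc1 replicate 2. Within shControl, replicate 2 also differed: its neuroendocrine tumour markers (10 of 10 tested) summed to 122 CPM, against 1018 and 1132 CPM in shControl replicates 1 and 3. Fits that leave out each library in turn are given at the end. Markers of lung epithelium were detected in all 6 libraries, with no alveolar type 2 marker at 0.

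**Figure D1:**
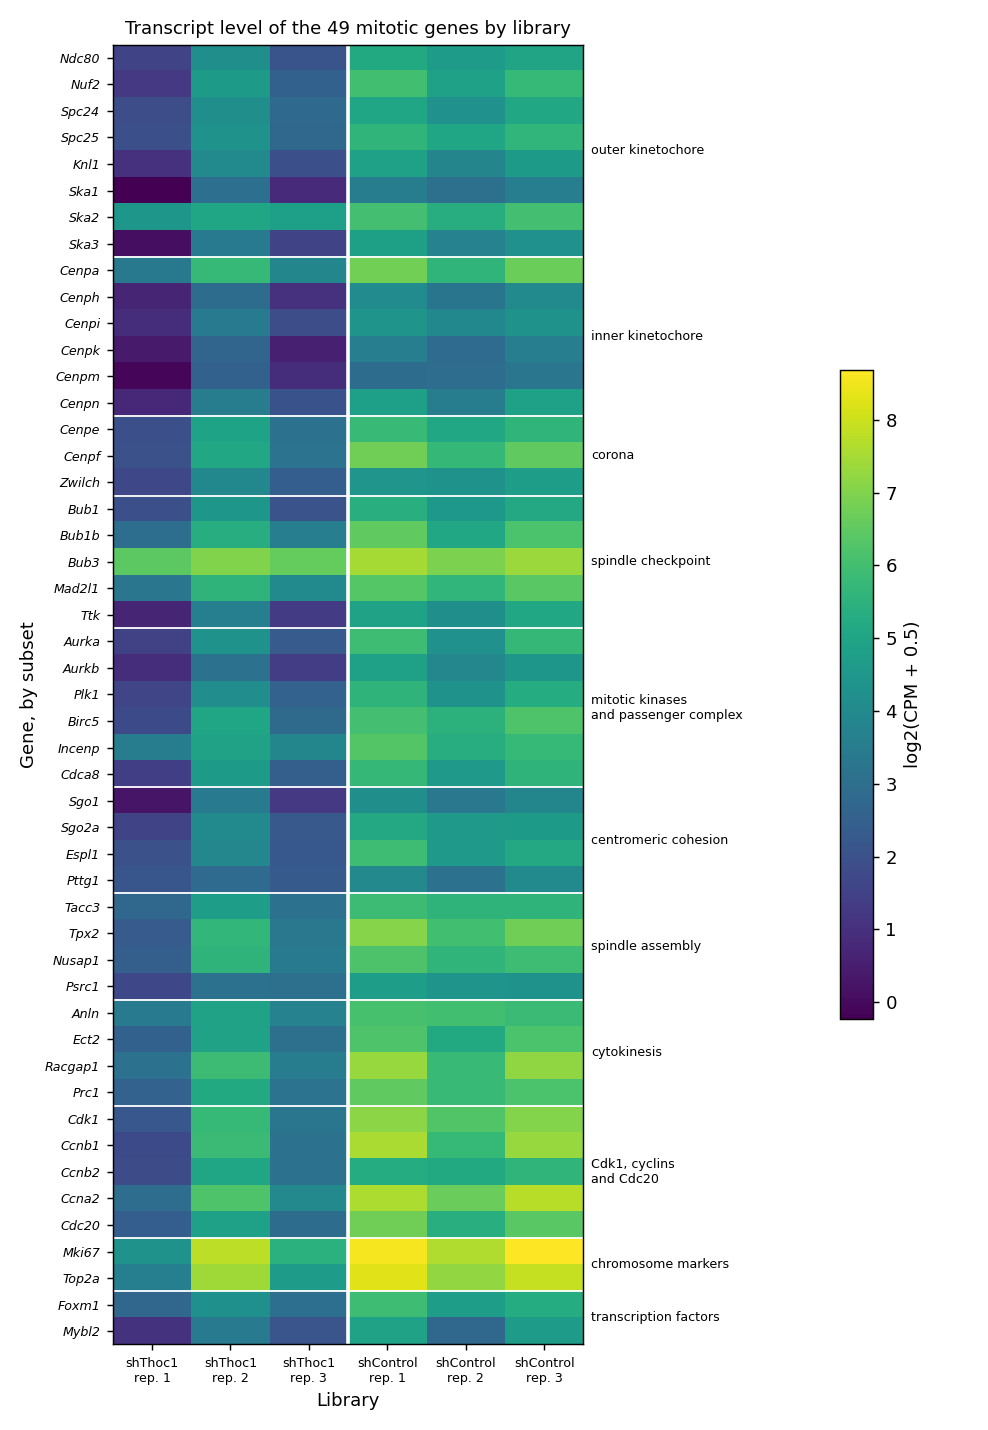
Level of each of the 49 genes (rows, by subset) in each library (columns, shThoc1 left of shControl), as log2(CPM + 0.5) on the colour scale. Values in shThoc1 replicate 1 are the lowest of the 6 libraries for all 49 genes, and the median of shThoc1 replicate 2 (4.62) is near that of shControl replicate 2 (4.87).

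The 49 genes had lower mean levels in shThoc1 than in shControl, although none passed the test over all genes. All 49 had a log2 fold change below 0, which was true of 47.9% of all genes tested. The median log2 fold change of the 49 was −1.94 (0.03 over all genes tested), and the median gene stood at 26.2% of its shControl mean. Values ran from −2.54 for Ccnb1, the cyclin that activates Cdk1 at mitotic entry, to −0.58 for the checkpoint protein gene Bub3, and 48 of the 49 lay below −1. The CPM of the 49 genes summed to 308, 1693 and 487 in shThoc1 replicates 1, 2 and 3. In shControl replicates 1, 2 and 3 the sums were 3693, 1927 and 3333. Fewer dividing cells and less RNA of these genes per cell cannot be told apart in such bulk samples.

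At an adjusted p under 0.05, edgeR called 0 of the 49 (background 0% of 15287 genes), with adjusted p of 0.304 to 0.407. At an unadjusted p under 0.05, 29 of the 49 were lower (background 9.24%). The 3 shThoc1 values lay below all 3 shControl values for 36 of the 49 (background 10.5%). In the authors' deposited table, whose columns carry DESeq2's names, 13 of the 49 were lower at an adjusted p under 0.05 (background 3.69%): Spc25, Ska2, Cenpf, Aurkb, Incenp, Espl1, Pttg1, Tacc3, Psrc1, Anln, Ect2, Cdc20 and Foxm1. A DESeq2 fit of the deposited counts gave the same log2 fold changes (largest difference 4.7e-10) and called the same 13. It repeats the authors' comparison and is not separate evidence. With shThoc1 replicates 2 and 3 summed as 1 sample, edgeR called 0 of the 49, and their median log2 fold change was −2.33.

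The spread within shThoc1 was larger than within shControl. The median level of the 49, as log2(CPM + 0.5), was 1.94, 4.62 and 2.86 in shThoc1 replicates 1, 2 and 3, and 5.88, 4.87 and 5.59 in shControl replicates 1, 2 and 3. The SD of these medians was 1.36 in shThoc1 and 0.52 in shControl. All 49 genes were higher in shThoc1 replicate 2 than in replicate 3, and all 49 were higher in replicate 3 than in replicate 1. Within shControl, replicate 2 was below replicate 1 for 48 genes and below replicate 3 for 46. The 13 genes whose groups overlapped were those with more CPM in shThoc1 replicate 2 than in shControl replicate 2: Knl1, Cenpa, Cenpn, Bub1b, Bub3, Aurka, Cdca8, Sgo1, Racgap1, Ccnb1, Mki67, Top2a and Mybl2.

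Without shThoc1 replicate 2 the 49 genes stood further below shControl. Their median log2 fold change was then −3.29 (−0.06 over all genes tested), with a range of −4.63 for Ccnb1 to −0.83 for Bub3. In that fit edgeR called 24 of the 49 as lower (background 0.933%), with adjusted p between 0.0488 and 0.0846 over the 49. All 24 had the same adjusted p of 0.0488, just under the threshold. Genes not called lay just above it, such as Racgap1 (0.0520) and Cenpa (0.0521), so the 24 are not a distinct group. The 24 were Ndc80, Spc25, Cenph, Cenpi, Cenpk, Cenpf, Zwilch, Bub1, Mad2l1, Ttk, Aurkb, Birc5, Sgo2a, Espl1, Tacc3, Tpx2, Nusap1, Anln, Ect2, Prc1, Cdk1, Ccna2, Cdc20 and Top2a. In these 5 libraries the 49 genes were lower without overlap, as were 30.5% of all genes tested.

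**Figure D2:**
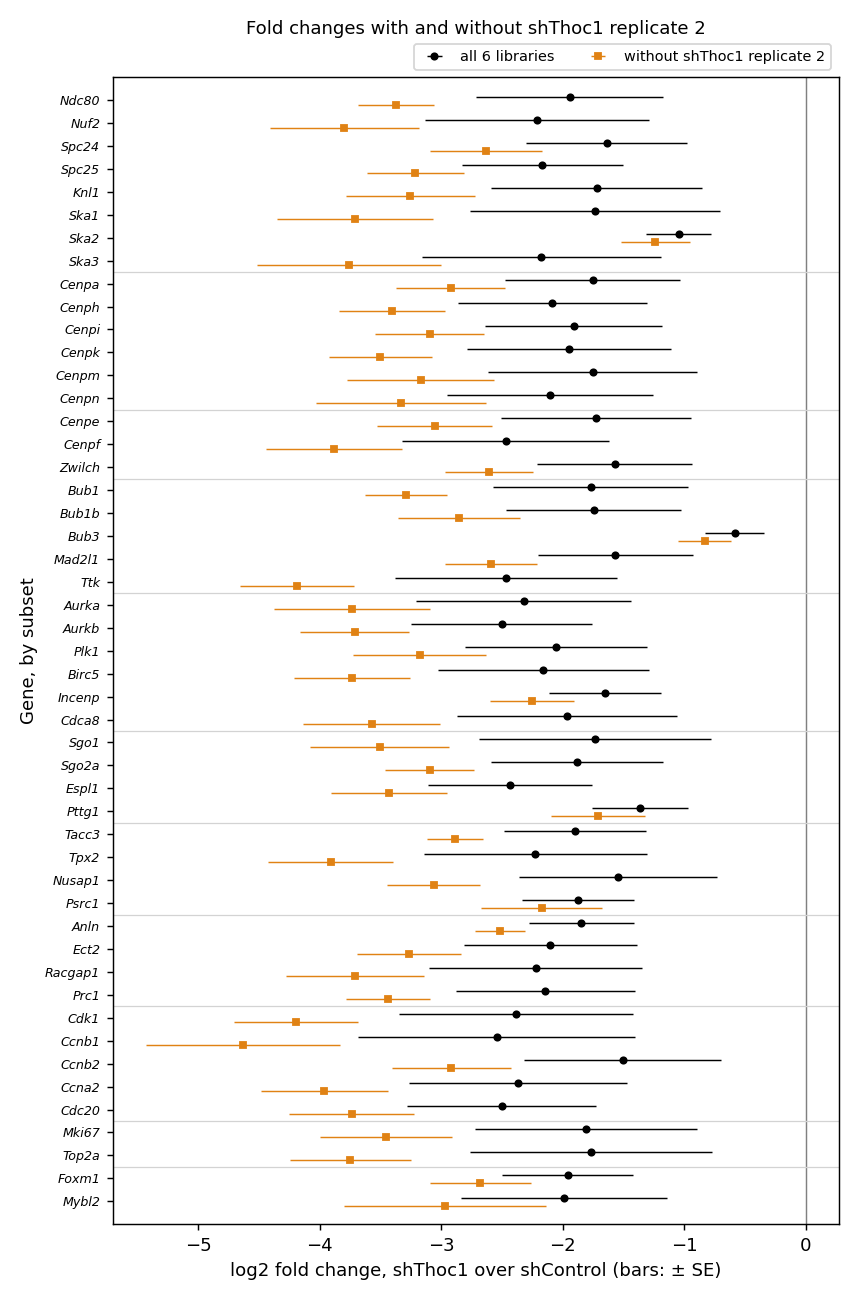
Log2 fold change of each of the 49 genes, shThoc1 over shControl, with bars of 1 SE, from all 6 libraries (black circles) and without shThoc1 replicate 2 (orange squares). All values lie below 0 in both fits, the median is −1.94 with all libraries and −3.29 without that library, and Ska2, Bub3 and Psrc1 move least.

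The subsets are given by their medians. The median log2 fold change was −1.91 over the 17 kinetochore genes (−1.84 outer, −1.93 inner, −1.72 corona), −1.75 over the 5 checkpoint genes, −2.11 over the 6 genes of the kinases and the passenger complex, and −2.12 over the 4 cytokinesis genes. It was −1.81 for centromeric cohesion, −1.88 for spindle assembly, −2.38 for Cdk1, its cyclins and Cdc20, −1.79 for the chromosome markers and −1.97 for the transcription factors. Differences between subsets were not tested.

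Cell type markers moved with the libraries. The median level of the 10 neuroendocrine tumour markers was 0.28, 4.24 and 1.31 log2(CPM + 0.5) in shThoc1 replicates 1, 2 and 3, and 6.22, 3.05 and 6.12 in shControl replicates 1, 2 and 3. Their summed CPM was 23.6 to 361 in shThoc1 and 122 to 1132 in shControl. No marker was at 0, but some were close to it, such as Chga and Insm1 at 0.07 CPM in shThoc1 replicate 1 and Scg2 at 0.07 CPM in shThoc1 replicate 3. The low medians of these libraries therefore carry much counting error. The 3 libraries with the lowest neuroendocrine medians included shControl replicate 2, which was also the lowest shControl library for the mitotic genes. The 6 B cell markers had medians of 3.18, 7.48 and 3.64 in shThoc1 and 3.84, 2.85 and 2.14 in shControl, and summed to 58.9 to 1023 CPM and 27.2 to 72.3 CPM in these groups. Of the 5 genes listed as germinal centre B cell markers, only S1pr2 and Gcsam had enough counts to be tested. Their median level was 3.71, 4.47 and 3.76 in shThoc1 replicates 1, 2 and 3, and 2.65, 3.6 and 2.55 in shControl replicates 1, 2 and 3. Gcsam had 3.41, 17.9 and 4.68 CPM in shThoc1 and 1.12, 3.43 and 1.83 CPM in shControl, highest in shThoc1 replicate 2, where S1pr2 was lowest of the shThoc1 libraries. The list summed to 39.6 to 46.8 CPM in shThoc1 and 16.0 to 40.5 CPM in shControl. Most of each sum was S1pr2, at 43.4, 26.1 and 34.9 CPM in shThoc1 and 23.9, 37.0 and 14.2 CPM in shControl. Whether S1pr2 RNA came from B cells was not tested, so the list is not read as a level of dividing B cells. In shThoc1 replicate 3 and in shControl replicates 2 and 3, 1 of these 5 markers was at 0.

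Markers of resident lung cells gave another order. The alveolar type 1 medians were 8.65, 3.72 and 8.72 in shThoc1 and 6.82, 7.57 and 7.17 in shControl, and the endothelial medians were 9.03, 4.20 and 8.48 in shThoc1 and 7.40, 8.07 and 7.15 in shControl. Airway secretory markers had medians of 11.6, 11.3 and 11.6 in shThoc1, against 9.0, 9.63 and 11.2 in shControl. Macrophage medians lay between 4.32 and 4.87 in shThoc1 and between 4.32 and 5.23 in shControl. Fibroblast medians were 6.57 to 7.96 in shThoc1 and 7.27 to 9.14 in shControl. The part of the cell makeup in the levels of the 49 genes was not tested.

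**Figure D3:**
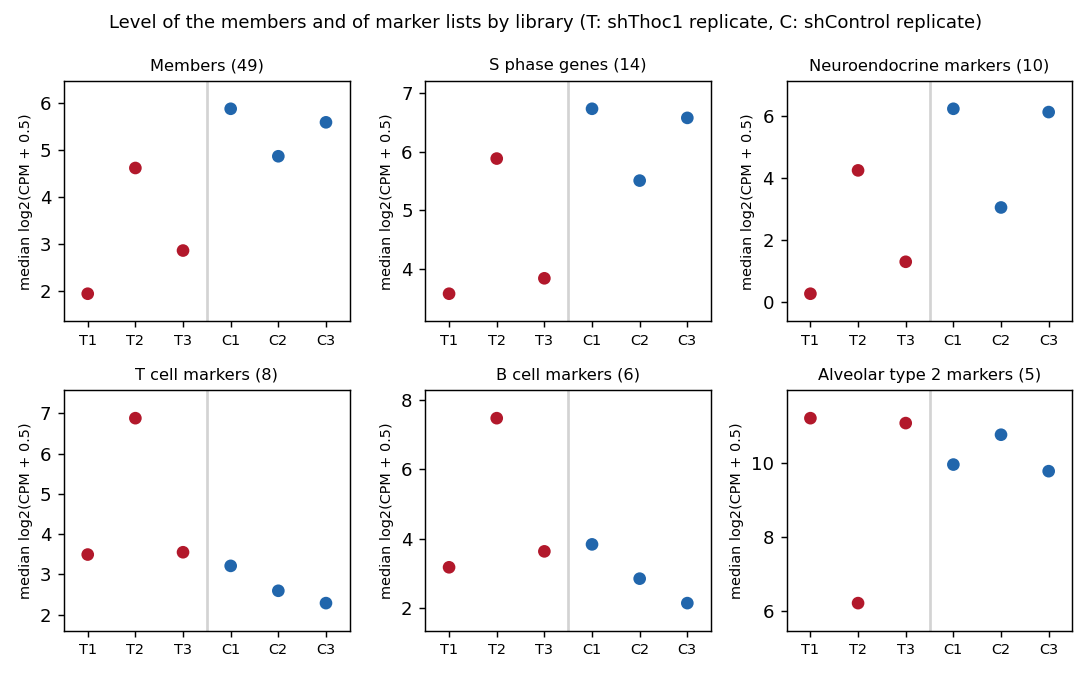
Median log2(CPM + 0.5) of the 49 genes and of marker lists in each library, with shThoc1 replicates (T1 to T3) left of shControl replicates (C1 to C3). The 49 genes and the neuroendocrine list are low in shThoc1 replicates 1 and 3, and shThoc1 replicate 2 is high for T and B cells and low for alveolar type 2 cells.

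Many genes of this machinery share a promoter layout, in which a CHR element near the transcription start binds the MuvB complex and upstream CCAAT boxes bind NF-Y. RefSeq promoter windows of GRCm38.p6, 300 bases each (250 before the start and 50 after), were matched for 41 of the 49 genes, as 48 windows. The letters searched on both strands were TTTGAA or TTCGAA for a CHR-like hexamer, CCAAT for the NF-Y box, and TTTCCCGC, TTTCGCGC, TTTGCCGC or TTTGGCGC for an E2F-like octamer. None of the 3 motifs contains another. The stretches below, the 100 bases before the start, are shown because they hold the paired layout in genes with log2 fold changes below the median of the set (Cdc20, Cdk1, Espl1) and above it (Top2a), or lack the hexamer in a gene nearer to 0 (Ska2). Capitals mark a hexamer (TTTGAA, or TTCAAA where it reads on the other strand) or a CCAAT box (ATTGG on the other strand).
Cdc20 (chr4:118437344-118437443, minus strand): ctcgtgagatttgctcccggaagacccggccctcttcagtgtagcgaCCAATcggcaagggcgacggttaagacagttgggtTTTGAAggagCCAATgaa
Cdk1 (chr10:69352913-69353012, minus strand): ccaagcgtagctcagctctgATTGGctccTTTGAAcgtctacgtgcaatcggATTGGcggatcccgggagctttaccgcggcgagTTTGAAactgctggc
Espl1 (chr15:102296193-102296292, plus strand): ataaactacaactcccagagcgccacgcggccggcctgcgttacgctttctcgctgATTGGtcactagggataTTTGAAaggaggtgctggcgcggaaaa
Top2a (chr11:99024190-99024289, minus strand): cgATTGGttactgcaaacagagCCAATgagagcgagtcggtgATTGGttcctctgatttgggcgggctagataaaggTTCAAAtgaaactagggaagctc
Ska2 (chr11:87109161-87109260, plus strand): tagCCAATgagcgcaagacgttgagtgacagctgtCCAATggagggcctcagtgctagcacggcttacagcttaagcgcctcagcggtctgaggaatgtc

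A CHR-like hexamer was found in 31 of the 48 windows (64.6%), against 19.2% of all 32851 windows of the table. By gene this was 27 of 41. A CCAAT box was found in 37 of the 48 windows (77.1%), against 37.4% of all windows. Both together were found in 27 of the 48 (56.3%), against 7.52% of all windows, and the E2F-like octamers in 2 of the 48 (4.17%), against 2.26%. Base composition was not equalised between the 48 and the rest, and a match of letters is not a bound site.

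The hexamers lay close to the start. In the span from 50 bases before to 50 after it, a span chosen after the positions were seen, 28 of the 48 windows (58.3%) held one, against 5.31% of all windows. In Cdc20, the activator of the anaphase-promoting complex, the hexamer began at position −18 and the CCAAT boxes at −53 and −8. In Espl1, the gene of separase, the hexamer began at −27 and the CCAAT box at −44. CCAAT boxes were most frequent between 70 and 50 bases before the start, in 27.1% of the windows of the set, against 5.56% of all windows.

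**Figure D4:**
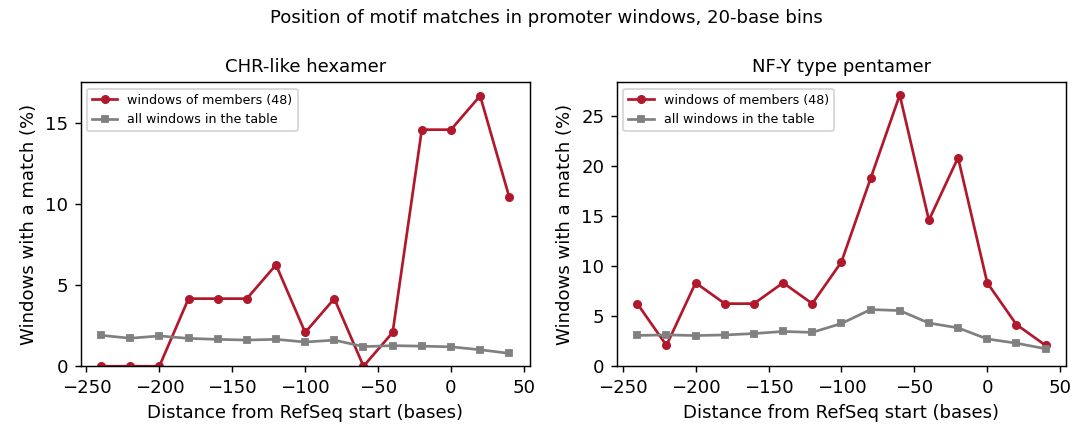
Share of promoter windows with a match in each 20-base bin, by distance of the match from the RefSeq start, for the 48 windows of the mitotic genes and for all 32851 windows. The CHR-like hexamer of the set is most frequent between 30 bases before and 50 after the start, and the CCAAT box (NF-Y type pentamer) between 90 and 10 bases before it.

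The median log2 fold change was −1.96 over the 27 genes with a hexamer and −1.90 over the 14 without one. Among the 7 genes with neither hexamer nor CCAAT box (Birc5, Mad2l1, Mybl2, Nuf2, Nusap1, Pttg1 and Tacc3) it was −1.90. Bub3, the gene nearest to 0, had both motifs, and Ccnb1, the gene farthest from 0, had a CCAAT box and no hexamer in this window.

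At the outer kinetochore the Ndc80 complex is the main microtubule coupler. Its 4 subunit genes had log2 fold changes of −1.94 (SE 0.77) for Ndc80, −2.21 (SE 0.92) for Nuf2, −1.64 (SE 0.66) for Spc24 and −2.17 (SE 0.66) for Spc25, with no overlap between groups in any of them. Nuf2, which pairs with Ndc80 in the arm that touches the microtubule, had 1.88, 24.1 and 5.35 CPM in shThoc1 replicates 1, 2 and 3, against 62.6, 28.8 and 52.9 CPM in shControl. All shThoc1 libraries were below all shControl libraries, with shThoc1 replicate 2 close to shControl replicate 2. Per kilobase of transcript, the 4 genes Ndc80, Nuf2, Spc24 and Spc25 averaged 3.66 ± 3.91, 4.34 ± 4.97, 5.40 ± 4.56 and 6.31 ± 5.5 CPM in shThoc1 (SD, n = 3). In shControl the same 4 genes averaged 14 ± 2.48, 20 ± 7.25, 16.7 ± 4.83 and 28.2 ± 6.34 CPM per kilobase (SD, n = 3). Spc25 had the highest mean in both groups, but within the spread of the others in shThoc1 and of Nuf2 in shControl. Ndc80, Nuf2 and Spc24 did not differ beyond their spread.

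Knl1, the scaffold that recruits the Bub proteins, had a log2 fold change of −1.72 (SE 0.87) and overlapping groups. The Ska complex, which helps the Ndc80 complex to follow shrinking microtubules, was uneven. Ska1 had 0.35, 7.61 and 1.26 CPM in shThoc1 and 11.1, 7.73 and 11.6 CPM in shControl, and Ska3 had a log2 fold change of −2.18 (SE 0.98). Ska2 was the outer kinetochore gene with the smallest log2 fold change (−1.04, SE 0.27). It had 22.0, 31.8 and 27.6 CPM in shThoc1 replicates 1, 2 and 3, against 64.1, 39.5 and 64.2 CPM in shControl, without overlap and with a narrow spread within shThoc1. The ratio of Ska2 to Ska1 was 63.4, 4.18 and 21.8 in shThoc1 and 5.79, 5.11 and 5.55 in shControl, and the low counts of Ska1 (5 in shThoc1 replicate 1) make the highest of these uncertain.

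At the inner kinetochore all 6 genes lay between −2.10 and −1.75 on the log2 scale. Cenpn, which reads the Cenpa nucleosome, was at −2.10 (SE 0.85) with 1.18, 11.1 and 3.49 CPM in shThoc1 and 27.4, 10.9 and 29.0 CPM in shControl. Cenpa was at −1.75 (SE 0.72), with 9.73, 53.3 and 14.1 CPM in shThoc1 and 109.9, 47.9 and 102 CPM in shControl. In both genes shThoc1 replicate 2 lay just above shControl replicate 2, and shThoc1 replicates 1 and 3 were below every shControl library. Per kilobase, Cenpa was at 17.5 ± 16.4 CPM in shThoc1 and 59.0 ± 22.99 CPM in shControl (SD, n = 3 each). This was the highest shControl mean of the 49 genes, and Ccna2, next at 56.6 ± 20.01 CPM per kilobase, did not differ from it beyond the spread. Cenph, Cenpi, Cenpk and Cenpm, other members of the constitutive centromere network, did not overlap between groups.

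The corona is the outermost layer that forms on unattached kinetochores. Cenpf, a large farnesylated protein of the corona, was at −2.47 (SE 0.85), with 3.41, 33.6 and 8.47 CPM in shThoc1 and 108, 51.3 and 91.7 CPM in shControl. Zwilch, part of the RZZ complex that brings dynein to kinetochores, was at −1.57 (SE 0.64), with 2.71, 14.8 and 4.90 CPM in shThoc1 and 20.7, 19.8 and 26 CPM in shControl. The groups did not overlap for either gene or for the kinesin gene Cenpe, which was at −1.72 (SE 0.78).

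The checkpoint subset held both the gene nearest to 0 and 1 of the genes farthest from it. Ttk, the Mps1 kinase that starts checkpoint signalling, was at −2.47 (SE 0.92), with 1.11, 11.8 and 2.01 CPM in shThoc1 and 29.6, 18 and 33.9 CPM in shControl, without overlap. Bub3 was at −0.58 (SE 0.24), with 86.0, 128 and 95.9 CPM in shThoc1 and 181, 121 and 162 CPM in shControl, and shThoc1 replicate 2 was above shControl replicate 2. The kinase gene Bub1 (−1.77, SE 0.81) and Mad2l1 (−1.57, SE 0.64), whose product binds Cdc20, did not overlap, whereas Bub1b (−1.75, SE 0.72) did. Bub1 and Bub1b proteins both work bound to Bub3.

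Because its log2 fold change was nearest to 0, Bub3 necessarily stood higher relative to the other genes in shThoc1 than in shControl. The relative levels and ratios given here restate the fold changes by library and are not a separate result. Relative to the median of the 49 genes in the same library, it stood at 4.50, 2.38 and 3.73 on the log2 scale in shThoc1 replicates 1, 2 and 3, and at 1.62, 2.06 and 1.75 in shControl, without overlap. The ratio of Bub3 to Bub1 CPM was 25.8, 5.82 and 26.3 in shThoc1 and 4.47, 5.37 and 4.61 in shControl. Ska2 and the securin gene Pttg1 also stood higher relative to the 49 in shThoc1, by 1.30 and 1.05 on average, but in both the shThoc1 range overlapped the shControl range. Mad2l1 (difference 0.47), Spc24 (0.45), Bub1b (0.35) and Knl1 (0.19) stood higher without overlap, by less than Bub3 (1.73). On the other side stood Ccnb1 (difference −0.97, overlapping), Cdk1 (−0.76), Ccna2 (−0.62), Cenpf (−0.61), Ttk (−0.56) and Tpx2 (−0.51), the last 5 without overlap. No share over all genes was computed for these relative levels and none was tested, so a lack of overlap in them is not read as a shift of the gene. They are differences of log2(CPM + 0.5), so the pseudocount compresses the lowest genes of shThoc1 replicate 1.

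**Figure D5:**
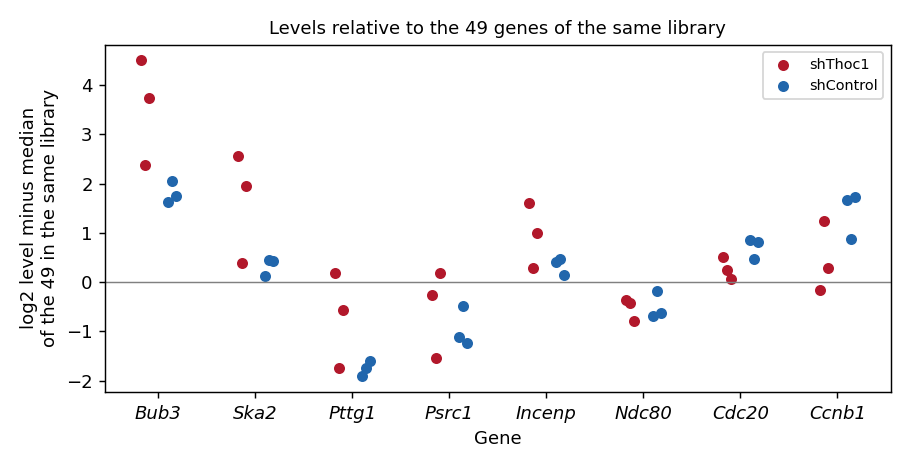
Level of selected genes relative to the median of the 49 in the same library (log2 units), 1 point per library, shThoc1 left of shControl. Bub3 stands 4.50, 2.38 and 3.73 above the median in shThoc1 replicates 1, 2 and 3 and 1.62 to 2.06 above it in shControl, and Ccnb1 stands between −0.17 and 1.24 in shThoc1 and between 0.89 and 1.73 in shControl.

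Among the mitotic kinases, Aurkb, the enzyme of the chromosomal passenger complex that corrects wrong attachments, had the lowest log2 fold change. It was at −2.50 (SE 0.75), with 1.39, 8.20 and 2.08 CPM in shThoc1 and 29.1, 14.3 and 22.2 CPM in shControl, without overlap. The scaffold gene of the same complex, Incenp, was at −1.65 (SE 0.46), with 11.1, 29.6 and 13.9 CPM in shThoc1 and 78.4, 39.9 and 52.9 CPM in shControl, again without overlap. The targeting subunits of the complex, Birc5 (survivin) and Cdca8 (borealin), were at −2.16 (SE 0.87) and −1.96 (SE 0.91). The spindle pole kinase Aurka was at −2.32 (SE 0.88) and Plk1, which acts from mitotic entry to cytokinesis, at −2.05 (SE 0.75). Aurka and Cdca8 overlapped between groups, and Birc5 and Plk1 did not.

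In the cohesion subset, the transcripts of separase and of its inhibitor had unlike log2 fold changes, a difference that was not tested. Espl1 encodes separase, the protease that cuts cohesin at anaphase, and was at −2.44 (SE 0.68) with 3.47, 14.3 and 4.16 CPM in shThoc1 and 59.6, 23.8 and 34.9 CPM in shControl. Pttg1 encodes securin, which holds separase inactive, and was at −1.36 (SE 0.40) with 3.89, 6.81 and 4.38 CPM in shThoc1 and 15.2, 8.20 and 15.4 CPM in shControl. Neither gene overlapped between groups. The ratio of Pttg1 to Espl1 CPM was 1.12, 0.48 and 1.05 in shThoc1 and 0.26, 0.34 and 0.44 in shControl, without overlap, although shThoc1 replicate 2 was near the highest control. The shugoshin genes Sgo1 (−1.73, SE 0.95, overlapping) and Sgo2a (−1.88, SE 0.71, not overlapping) protect centromeric cohesin.

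Of the spindle assembly genes, Tpx2, which activates Aurka on microtubules, had the lowest log2 fold change at −2.22 (SE 0.92), with 4.52, 51.2 and 9.58 CPM in shThoc1 and 134, 63.3 and 107 CPM in shControl. Nusap1, a microtubule bundling protein, was at −1.55 (SE 0.81), with 5.07, 47.0 and 10.03 CPM in shThoc1 and 73.1, 48.5 and 59.2 CPM in shControl. Both were without overlap, but in Nusap1 shThoc1 replicate 2 was close to shControl replicate 2. Tacc3, which stabilises kinetochore fibres, was at −1.90 (SE 0.58). Psrc1, a spindle protein, was at −1.87 (SE 0.46), and its shThoc1 replicates 2 and 3 were level, at 8.0 and 7.73 CPM.

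For cytokinesis, the centralspindlin subunit gene Racgap1 was at −2.22 (SE 0.88), with 7.99, 57.9 and 11.1 CPM in shThoc1 and 157, 54.0 and 147 CPM in shControl. Here shThoc1 replicate 2 exceeded shControl replicate 2. Ect2, the exchange factor that Racgap1 recruits to activate RhoA at the furrow, was at −2.10 (SE 0.71), and Prc1, which bundles midzone microtubules, at −2.14 (SE 0.74), both without overlap. Anln (anillin), the scaffold of the contractile ring, was at −1.85 (SE 0.43) with 10.2, 29.4 and 12.7 CPM in shThoc1 and 68.3, 63.1 and 56.6 CPM in shControl. Its shControl libraries were close to each other, and the highest shThoc1 library was well below them.

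Cdk1 and its partners were the subset farthest from 0. Ccnb1 was at −2.54 (SE 1.14), with 2.92, 57.6 and 8.32 CPM in shThoc1 and 187, 53.5 and 159 CPM in shControl, and shThoc1 replicate 2 was above shControl replicate 2. Its relative Ccnb2 was at −1.51 (SE 0.81), with 2.99, 31.9 and 8.32 CPM in shThoc1 and 38.2, 36.1 and 48 CPM in shControl, without overlap. The ratio of Ccnb1 to Ccnb2 CPM, not corrected for length, was 0.98, 1.80 and 1.00 in shThoc1 and 4.89, 1.48 and 3.32 in shControl, with overlap. The kinase gene Cdk1 was at −2.38 (SE 0.96), the S and G2 cyclin gene Ccna2 at −2.37 (SE 0.90) and Cdc20 at −2.50 (SE 0.78), all without overlap.

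Mki67, which coats mitotic chromosomes, and Top2a, the enzyme that untangles them, had the highest mean CPM of the set in shControl. Mki67 was at −1.81 (SE 0.91), with 19.2, 220.1 and 43.7 CPM in shThoc1 and 380.2, 196 and 413 CPM in shControl. Top2a was at −1.77 (SE 1.00), with 11.9, 171 and 24.7 CPM in shThoc1 and 312, 152 and 242 CPM in shControl. In both genes shThoc1 replicate 2 was above shControl replicate 2, so the groups overlapped.

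Foxm1 and Mybl2 (B-Myb) drive late cell cycle transcription, Mybl2 as a partner of the MuvB complex. Foxm1 was at −1.96 (SE 0.54), with 5.98, 18.6 and 7.58 CPM in shThoc1 and 59.4, 26.3 and 38.9 CPM in shControl, without overlap. Mybl2 was at −1.99 (SE 0.85), with 1.60, 10.1 and 3.86 CPM in shThoc1 and 29.6, 6.21 and 25.6 CPM in shControl. For Mybl2, shControl replicate 2 was lower than shThoc1 replicate 2, and it had the largest SE without shThoc1 replicate 2 (log2 fold change −2.97, SE 0.83).

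Other genes of the same machinery were read from 7 further lists, and edgeR called 0 genes at an adjusted p under 0.05 in each of them. At an unadjusted p under 0.05, the share of lower genes ran from 1 of 10 MuvB and DREAM subunits, near the background of 9.24%, to 8 of 14 mitotic entry regulators. In the authors' deposited table, the share lower at an adjusted p under 0.05 ran from 1 of 16 condensin and cohesin genes to 4 of 18 anaphase-promoting complex genes (background 3.69%). The counts without overlap given for these lists are of lower genes, against a background of 10.5%. Of 22 other kinetochore genes, 21 were below 0 with a median of −1.16, and 13 did not overlap. The 2 with the smallest p were Cenpt, an inner kinetochore protein that also binds the Ndc80 complex, at 14.6 ± 1.59 CPM in shThoc1 and 28.3 ± 3.84 CPM in shControl, and Hjurp, the chaperone that loads Cenpa, at 76.2 ± 16.7 CPM in shThoc1 and 182 ± 66.1 CPM in shControl (SD, n = 3 each). All 14 mitotic entry regulators were below 0 with a median of −1.52, and 8 did not overlap, among them the Greatwall kinase gene Mastl (−1.64, SE 0.49) and the Cdk subunit gene Cks1b (−1.99, SE 0.62). All 14 S phase genes were below 0 with a median of −1.47, and 3 of the 14 did not overlap. Of these, the replication helicase gene Gins2 was at −1.10 (SE 0.33) without overlap, and the licensing factor gene Cdt1 at −2.23 (SE 0.71) with overlap.

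The medians of the next 3 lists lay nearer to 0. Condensin and cohesin genes were below 0 in 14 of 16, with a median of −0.36, and 7 lower genes did not overlap. The condensin I genes Ncaph (−1.62, SE 0.52) and Ncapd2 (−2.19, SE 0.72) had the smallest p, whereas the cohesin subunit gene Stag2, the 1 gene of the list above shControl without overlap, was higher in every shThoc1 library (172, 158 and 176 CPM) than in shControl (125, 150 and 137 CPM). Anaphase-promoting complex genes were below 0 in 15 of 18 with a median of −0.35, and 11 did not overlap. Cdc16, a core subunit, was at −0.78 (SE 0.17), with 54.8, 66.2 and 59.3 CPM in shThoc1 and 107, 91.7 and 111 CPM in shControl, and the ubiquitin-conjugating enzyme gene Ube2s was at −1.12 (SE 0.30). Midbody and abscission genes were below 0 in 9 of 13 with a median of −0.79, and 6 did not overlap, led by the citron kinase gene Cit (−1.35, SE 0.44) and the kinesin gene Kif4 (−2.09, SE 0.70).

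The MuvB and DREAM subunits gave no common direction. Of 10 genes, 6 were below 0 with a median of −0.06, and 1 was lower without overlap, a share near the 10.5% of all genes tested. Rbl2 and E2f4 (0.10, SE 0.16) were higher in every shThoc1 library than in shControl. The share of all genes higher in this way was not computed, so this is not read as a result about the list. Tfdp1, the dimer partner of E2F proteins, was at −1.83 (SE 0.59) with 44.9, 130 and 50.4 CPM in shThoc1 and 338, 122 and 337 CPM in shControl, overlapping in shThoc1 replicate 2. Rbl2 (p130), the pocket protein of the repressive DREAM complex in resting cells, was at 0.69 (SE 0.24) with 89.6, 79.9 and 96.1 CPM in shThoc1 and 42.6, 72.1 and 50.1 CPM in shControl. The adjusted p was 0.304 for both Tfdp1 and Rbl2.

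Exons of 10 of the 49 genes overlap those of another gene in GENCODE M21, among them Ccna2 (Exosc9), Cdc20 (Elovl1), Nusap1 (Oip5), Prc1 (Rccd1), Ska3 (Sap18), Tacc3 (Tmem129) and Zwilch (Lctl) on the opposite strand and Foxm1 (Tex52) on the same strand. The overlap spans 53 to 670 bases. Whether counting used strand is not given in the sources used here, so the values of these genes are uncertain to that extent.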

How the data were processed

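Reads came from 6 mouse lung libraries, made with an RNeasy and a NEBNext Ultra kit per the labels' protocols. The authors deposited 1 table of raw counts per gene and library, together with a log2 fold change, its standard error, a p-value and an adjusted p-value from their own comparison. A mean normalized signal and a test score per gene stand in the same deposited table and were not used. The build was GRCm39, per the submitters' processing notes, and the aligner, counter and strand setting are not given in the labels or notes used here. Promoters and transcript lengths come from references of GRCm38, so no coordinate of the count table is printed.

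Counts were tested with edgeR 4.0.16 (R 4.3.3): filterByExpr, TMM scaling, robust quasi-likelihood F-test, Benjamini-Hochberg adjustment over 15287 genes, and a call at an adjusted p under 0.05. The standard error was taken from the F statistic. CPM use TMM-scaled library sizes, and levels are log2(CPM + 0.5). Per-kilobase values divide CPM by the longest GENCODE M21 coding transcript of the gene. The common biological coefficient of variation was 0.480. Alternatives were other scalings, other filters, DESeq2 1.42.0, leaving out each library, and summing shThoc1 replicates 2 and 3, whose titles share their first number. The main edgeR fit was also run on simulated counts. These varied less between libraries than the real counts, so that run cannot show how the fit performs on these data.

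The members, their subsets, the further lists and the tests were chosen with earlier results of these data known. For each subset, the genes with the smallest and the largest log2 fold change are given per library, and of each further list the 2 with the smallest p. Stag2, Gcsam and the other genes given per library were chosen after their values were seen. Replicate numbers follow the order of the records and pair nothing. No library repeated another within counting error: the most similar pair, shThoc1 replicates 1 and 3, gave a chi-square of 20.4 for each degree of freedom.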

Additional observations from a re-analysis of the deposited data

How the results depend on the processing

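All 49 genes stayed below 0 under every alternative run: other scalings in edgeR (DESeq2 size factors, upper quartile), dropping the filter or requiring 1 CPM in 3 libraries, DESeq2's Wald test, the summed shThoc1 replicates 2 and 3, and each library left out. Calls at an adjusted p under 0.05 numbered 0 by edgeR under all scalings and filters and with the summed libraries. The DESeq2 Wald test, which repeats the authors' comparison, called 13. With 1 library left out the edgeR calls numbered 0 to 24, all 24 without shThoc1 replicate 2. Over the 49 genes the median log2 fold change ranged from −3.29 (without shThoc1 replicate 2) to −1.48 (without shThoc1 replicate 1) with 1 library left out, and from −2.33 (summed libraries) to −1.87 (upper quartile scaling) otherwise. Genes without overlap numbered 31 under upper quartile scaling, and 31 to 49 with 1 library left out. The share of all genes lower without overlap was 10.5% with all 6 libraries and 30.5% without shThoc1 replicate 2. It was not computed for the other settings, so these counts cannot be compared with each other. The cause of the shifts between settings was not tested. The median over all genes tested stayed between −0.06 and 0.09. The lowest count of a gene of the set was 5 in shThoc1 and 78 in shControl, so the lowest shThoc1 values carry the most counting error. No paired analysis was possible because the replicate numbers follow the order of the records and the labels pair no shThoc1 library with a shControl library.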
